A study of Mus musculus with 26 samples.

Results

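The cytosolic ribosomal protein genes code for the proteins of the large (Rpl, Rplp) and small (Rps, Rpsa) subunits of the ribosome outside mitochondria. They were taken here by symbol: rows that start with Rpl or Rps and a number, plus Rplp0, Rplp1, Rplp2 and Rpsa, without the Rps6k kinases and without symbols that contain -ps. The rule found 89 of the 24682 gene rows, 54 named for the large and 35 for the small subunit. Of these, 75 formed the core set, 4 were X-linked genes (Rpl10, Rpl36a, Rpl39 and Rps4x) and 9 were paralogs of other ribosomal protein genes. The last one, Rps19bp1, codes for a protein that binds Rps19 and is not itself part of the ribosome. In GENCODE M21, 86 of the 89 were protein-coding. The paralog Rps4l and Rpl37rt were annotated as transcribed processed pseudogenes, and Rpl32l as a processed pseudogene. Rpl37rt and Rpl32l were counted in the core set although they are not standard ribosomal protein genes.

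RNA was sequenced from mouse testis. Whole testes came from C57BL/6 mice at postnatal day 21 and form 3 sets by column heading: 2 Nkapl knockout against 3 wild-type libraries, 2 Sox30 knockout against 3 wild-type libraries, and 3 libraries homozygous for the Nkapl TGdel allele against 2 wild-type libraries. Nkapl and Sox30 are genes of the male germline, and the series title names a frameshift of NKAPL. Round spermatids and pachytene spermatocytes were isolated from Nkapl knockout and from wild-type mice, with 2 libraries in each of the 4 groups. Their titles give 21 days. The design text speaks of biological triplicates, while the groups used here hold 2 or 3 libraries. The method of cell separation is not stated, and nothing ties a library to its own animal, so p-values measure the spread between libraries, which may be in part technical.

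Each ribosome needs 1 copy of nearly every ribosomal protein, and the genes are among the most strongly transcribed in most cells. Many of their mRNAs start with a C followed by a run of pyrimidines, the 5′ terminal oligopyrimidine tract that links their translation to nutrient signalling. Male germ cells silence the X chromosome during meiosis, and several X-linked ribosomal protein genes have autosomal copies made by retroposition that are active in the testis; in mouse, Rpl10l takes the place of Rpl10 in meiosis and Rpl39l replaces Rpl39 in ribosomes of the germline.

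The start regions of the X-linked genes and their paralogs, and of 3 core genes whose RNA fell between the cell stages, show how far a parent and its copy share such letters. The sequences are from RefSeq (GRCm38.p6) and run 5′ to 3′ on the strand of the transcript, 15 bases before the RefSeq start and 15 bases from it. Capitals mark CTTTT or CTTTC or CTTCT or CTTCC or CTCTT or CTCTC or CTCCT or CTCCC, that is, CT and 3 pyrimidines, and overlapping matches are joined.
Rpl10 (chrX:74270801-74270830, plus strand): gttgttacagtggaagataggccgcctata
Rpl10l (chr12:66284387-66284416, minus strand): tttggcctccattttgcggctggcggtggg
Rpl39 (chrX:37085208-37085237, minus strand): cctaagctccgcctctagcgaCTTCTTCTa
Rpl39l (chr16:10170213-10170242, plus strand): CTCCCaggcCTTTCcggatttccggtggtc
Rpl36a (chrX:134585639-134585668, plus strand): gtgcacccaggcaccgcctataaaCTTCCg
Rpl36al (chr12:69184053-69184082, minus strand): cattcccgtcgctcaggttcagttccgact
Rps4x (chrX:102189377-102189406, minus strand): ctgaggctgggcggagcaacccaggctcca
Rpl10a (chr17:28328456-28328485, plus strand): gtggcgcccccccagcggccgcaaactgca
Rpl14 (chr9:120571502-120571531, plus strand): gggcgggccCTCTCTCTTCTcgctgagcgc
Rps3 (chr7:99483695-99483724, minus strand): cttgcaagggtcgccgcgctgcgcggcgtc
Of the 68 rows with an entry in the table, 37 (54.4%) held such a word on the transcript's strand within the window, against 28.2% of all 27025 genes with an entry. On the other strand the shares were 23.5% of the 68 and 30.6% of all. Among the pairs, Rpl39, Rpl39l and Rpl36a held a word and Rpl10, Rpl10l, Rpl36al and Rps4x did not, so parent and copy did not always match. Rps4l, a row on chromosome 6, is named only. The match describes these letters in this window, and no start site was measured here.

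Levels are given as CPM, counts relative to library size after scaling by edgeR's trimmed mean of M-values (TMM). Each testis set was scaled alone and the 8 libraries of isolated cells together, so levels set side by side across sets were normalized separately. Tests are edgeR's quasi-likelihood test with Benjamini-Hochberg adjustment over all genes tested, two-sided, with the threshold at an adjusted p of 0.05, and fold changes are on the log2 scale. Total counts were 20120729 to 25514132 in the Nkapl set, 34167576 to 40010106 in the Sox30 set, 16469667 to 17822056 in the TGdel set and 18155299 to 19569272 in isolated cells.

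The targeted genes were read first, in CPM without TMM factors. In whole testis, Nkapl had 62.1 and 59.7 CPM in Nkapl knockout libraries against 73.9, 77.6 and 78.4 CPM in wild-type libraries, and Sox30 had 46.2 and 60.3 CPM in Sox30 knockout libraries against 78.2, 84.0 and 72.8 CPM in wild-type libraries. In the TGdel set, Nkapl had 108, 117 and 123 CPM in TGdel libraries against 101 and 105 CPM in wild-type libraries, higher in every TGdel library, and gene counts do not show the allele itself. Spermatids had 23.6 and 22.7 CPM of Nkapl in knockout against 78.2 and 80.5 CPM in wild-type libraries. Spermatocytes went the other way, with 132 and 131 CPM in the libraries labelled knockout against 101 and 96.6 CPM in those labelled wild type. The spermatocyte libraries are therefore called by their labels throughout. All markers of both stages had counts in the 8 libraries of isolated cells. The 12 round spermatid markers summed to 2609 to 2630 CPM in knockout and 6997 to 7186 CPM in wild-type spermatids, and the 12 pachytene markers to 11484 to 11785 CPM in spermatocytes labelled knockout and 10807 to 10925 CPM in those labelled wild type. The pachytene markers also reached 10603 to 10718 CPM in knockout and 9062 to 9340 CPM in wild-type spermatids. For 4 testis libraries the heading conflicts with the record that holds the file; they are TGdel 3 and wild type 2 of its set, and wild type 3 of both the Sox30 and the Nkapl sets. Counts of members called are given with and without them. Summed shares, paralog shares, counts of other gene lists and most single-gene values are given by heading, with them kept.

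The 89 rows together took 1.11% ± 0.0181 of all counts in Nkapl knockout testes (SD, n = 2) and 1.02% ± 0.0437 in wild-type testes of that set (n = 3). The share was 1.18% ± 0.0803 in Sox30 knockout and 1.10% ± 0.0686 in wild-type testes (n = 2 and 3). It was 1.85% ± 0.0410 in TGdel testes (n = 3) and 1.96% ± 0.0683 in wild-type testes (n = 2). In spermatids it was 1.03% ± 0.0023 in knockout and 0.942% ± 0.00159 in wild type, and in spermatocytes 1.43% ± 0.00061 in the libraries labelled knockout and 1.28% ± 0.0776 in those labelled wild type (n = 2 each). Spermatids had a lower share than spermatocytes under either genotype label, with no overlap between the libraries. The Nkapl knockout testes lay above their wild-type testes, the Sox30 groups overlapped, and the TGdel testes lay below theirs. In bulk libraries, fewer cells of a type and less RNA per cell cannot be told apart. The ribosomal RNA transcript Rn45s took 5.29% to 5.53% of counts in Nkapl knockout against 3.96% to 3.97% in wild-type testes; without it, the summed share was 1.17% ± 0.0169 in knockout and 1.06% ± 0.0454 in wild type.

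**Figure D1:**
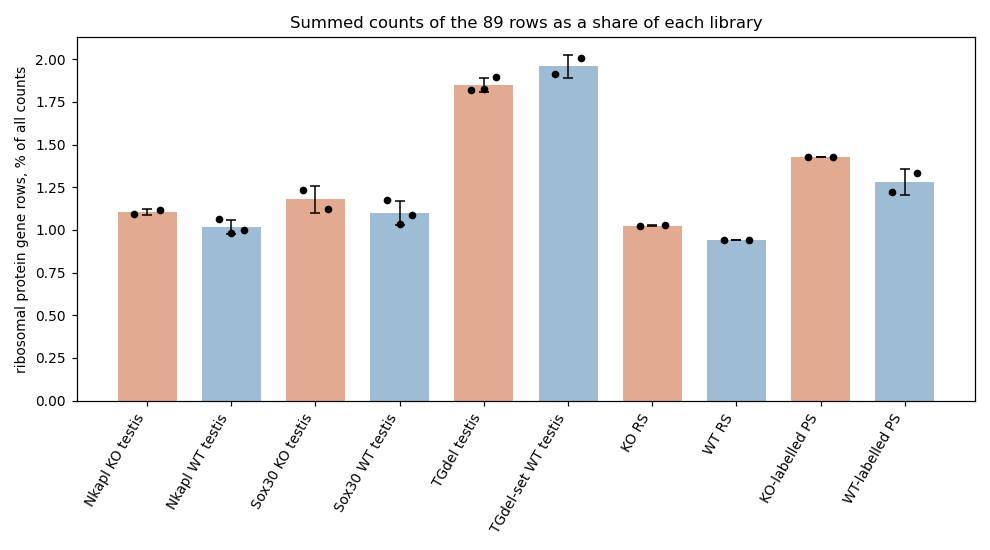
Summed counts of the 89 ribosomal protein gene rows as a percentage of all counts in each library (y axis, from 0) for the 10 groups (x axis); bars are group means, error bars the SD, points single libraries. KO is knockout, WT wild type, RS round spermatids and PS pachytene spermatocytes. The TGdel set sits highest at 1.85% and 1.96%, and wild-type spermatids lowest at 0.942%.

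Levels differed widely between members. Per kilobase of the longest GENCODE transcript, the median over the 89 rows was 115 CPM per kilobase in knockout and 109 in wild-type spermatids, and 142 in spermatocytes labelled knockout and 120 in those labelled wild type. Rplp0, which anchors the stalk of the large subunit, had the highest level per kilobase in all 4 groups, with 588 in knockout spermatids, 575 in wild-type spermatids, 732 in spermatocytes labelled knockout and 621 in those labelled wild type. At the other end, Rps27rt had no count in any of the 23 libraries and Rpl26 had 4 counts in all. Rps27 reached at most 13, Rpl34 15, Rpl3l 32, Rpl30 65 and Rpl32l 80 counts in any library. Rpl26, Rpl30, Rpl34 and Rps27 code for core proteins that every ribosome carries, and how their reads were assigned among near-identical gene copies is not stated. In isolated cells, an HTSeq summary line held reads without a unique alignment, at 4.24% to 4.78% of the sum of gene counts and summary lines, with no gene given. The same limit holds for every member with pseudogenes of nearly the same sequence.

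The X-linked genes had lower levels in isolated germ cells than in whole testis, and each of their paralogs exceeded its parent there. Rpl10, which joins the large subunit late in its assembly near the peptidyl transferase centre, had 11.1 and 11.5 CPM in knockout spermatids, 5.31 and 5.72 CPM in wild-type spermatids, 9.8 and 9.09 CPM in spermatocytes labelled knockout and 7.33 and 8.1 CPM in those labelled wild type. Whole testes had 51.3 to 118 CPM over the 15 libraries. Its retroposed copy Rpl10l had 265 to 400.0 CPM in isolated cells and 144 to 292 CPM in testes, so the copy exceeded the parent in each of the 23 libraries.

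Rps4x, a protein of the small subunit, showed the same contrast of levels, with 1.69 to 5.74 CPM in isolated cells and 48.6 to 87.0 CPM in testes. Rps4l had 116 to 189.7 CPM in isolated cells and 84.6 to 142 CPM in testes. Rpl39, a small protein that lines the exit tunnel of the large subunit, had 0.817 to 1.64 CPM in isolated cells, from 14 to 36 counts a library, and 6.55 to 38.2 CPM in testes. Rpl39l had 198 to 268 CPM in isolated cells and 61.6 to 227 CPM in testes. Rpl36a, a protein of the large subunit, had 1.87 to 4.28 CPM in isolated cells and 5.69 to 33.4 CPM in testes, and its copy Rpl36al had 66.1 to 87.1 and 45.9 to 96.1 CPM. All 4 parents were thus lower in every isolated-cell library than in any testis library. This was not particular to X-linked genes. The autosomal Rpl7l1 had 5.08 to 13.4 CPM per kilobase in isolated cells and 21.1 to 32.4 in testes. Testes also held somatic cells: the 8 Sertoli markers summed to 1281 to 2307 CPM in testes and to 23.8 to 273 CPM in isolated cells, and the part of those cells in the contrast was not tested.

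**Figure D2:**
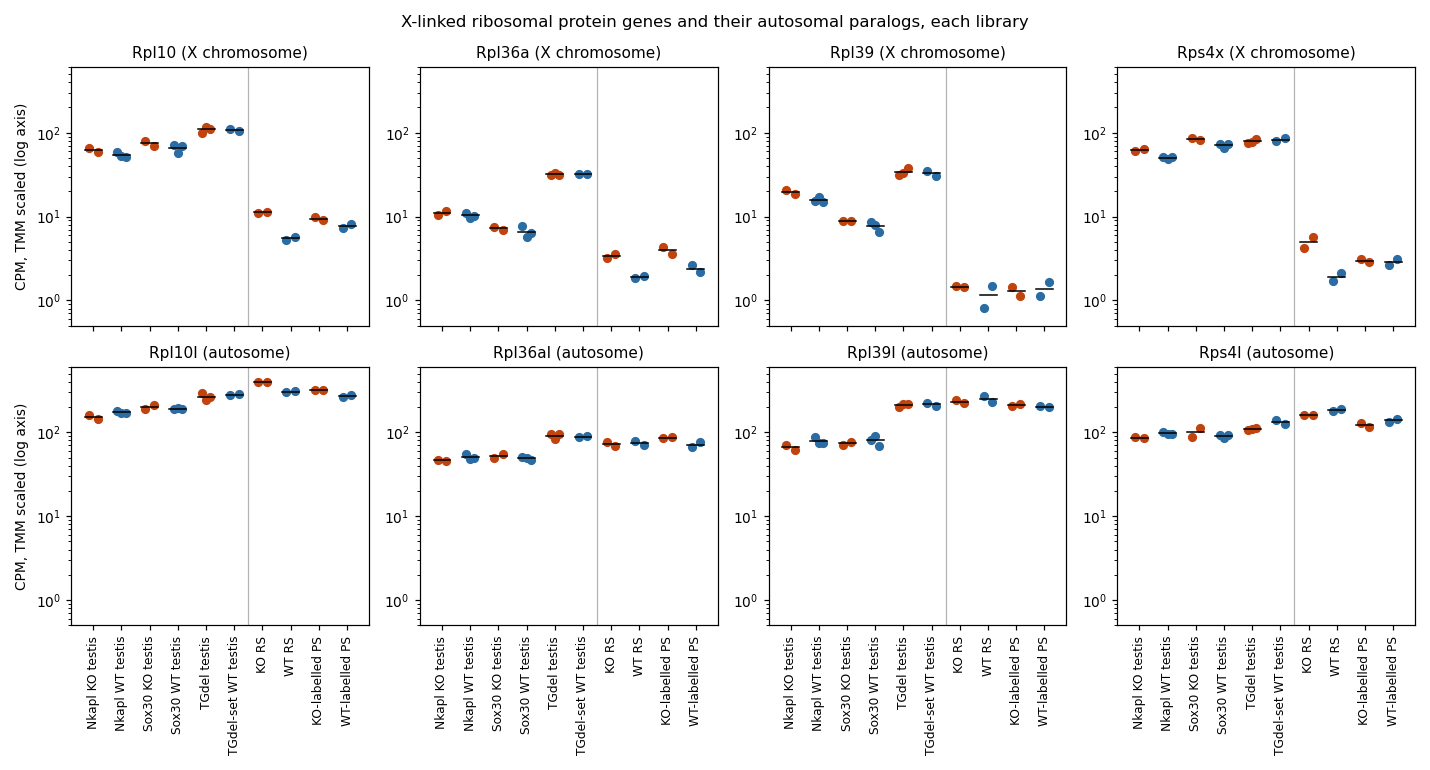
CPM after TMM scaling (y axis, log scale) of the 4 X-linked genes (top row) and their autosomal paralogs (bottom row) in each library of the 10 groups (x axis, mutant left of wild type in each pair); points are libraries, lines group means, and the vertical line separates testes from isolated cells. All 4 parents are lower in every isolated-cell library (Rpl10 5.31 to 11.5 CPM) than in any testis library (51.3 to 118 CPM), paralogs stay within or above their testis range, and Rpl10 and Rps4x are higher in knockout than in wild-type spermatids.

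Per kilobase, Rpl10l made up 96.8 and 96.6% of the sum of Rpl10l and Rpl10 in knockout spermatids and 97.95 and 97.82% in wild-type spermatids, 96.4 and 96.7% in spermatocytes labelled knockout and 96.8 and 96.7% in those labelled wild type. Rps4l made up 97.5 and 96.6% of its pair in knockout and 99.1 and 98.9% in wild-type spermatids, and Rpl39l 99.2 and 99.2% and 99.6 and 99.2%. In spermatids the copy's share of the Rpl10, Rps4x and Rpl36a pairs was lower in both knockout libraries than in either wild-type library. Rpl36al had 89.9 and 87.9% in knockout and 94.1 and 93.1% in wild-type spermatids.

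In testis the copies held a smaller share. Rpl10l made up 67.2 and 66.8% of its pair in Nkapl knockout testes, against 72.3, 72.9 and 73.5% in wild-type testes. Rps4l made up 60.1 and 57.7% in knockout and 67.0, 67.2 and 66.3% in wild-type testes, and Rpl39l 72.3 and 71.9% in knockout and 81.5, 77.0 and 79.1% in wild-type testes. The groups did not overlap for any of the 3 pairs, with the knockout lower each time. By the file record, wild type 3 would join the knockouts, and Rpl10l (73.5%) and Rpl39l (79.1%) would then overlap with wild type. In the other sets the pairs differed in this: Rpl10l had 66.5 and 71.6% in Sox30 knockout and 69.2, 74.3 and 69.4% in wild-type testes, and 63.6, 66.3 and 71.0% in TGdel and 67.5 and 69.2% in wild-type testes, with overlap in both sets. Rpl39l had 85.7 and 87.0% in Sox30 knockout and 87.7, 89.8 and 88.8% in wild-type testes, with no overlap. Rps4l had 59.3, 58.0 and 59.1% in TGdel and 64.9 and 60.1% in wild-type testes, also with none. Both rest on the headings. By the file record, wild type 3 of the Sox30 set (88.8%) would join the knockouts. Wild type 2 (60.1%) and TGdel 3 (59.1%) would change places, and both pairs would overlap. Rpl39l in the TGdel set and Rps4l in the Sox30 set overlapped. Rpl22l1, a copy of the RNA-binding protein gene Rpl22 whose parent is autosomal, made up 88.3 to 92.6% of its pair in isolated cells and 52.2 to 75.7% in testes.

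**Figure D3:**
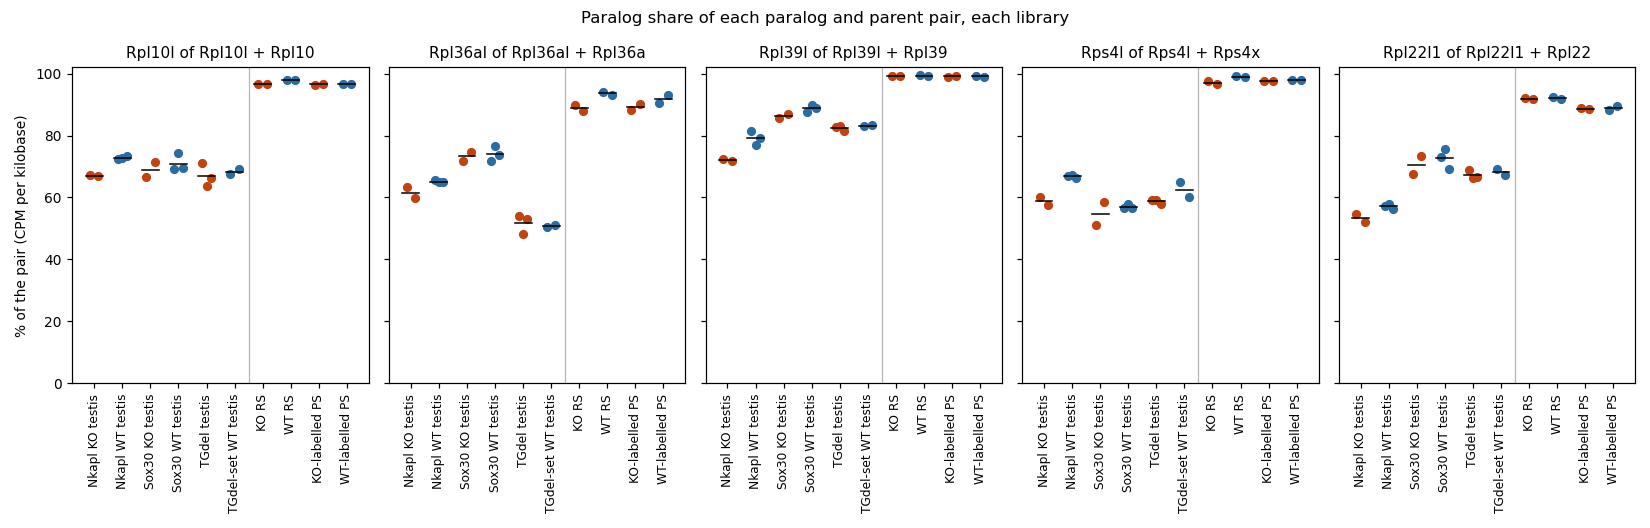
Share of the paralog in the sum of paralog and parent, both as CPM per kilobase of the longest transcript (y axis, percent), for 5 pairs in each library of the 10 groups (x axis, mutant left of wild type); points are libraries, lines group means. In isolated cells every pair is above 85%, and in Nkapl knockout testes the 5 paralogs sit below their share in wild-type testes.

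Between the germ cell stages, spermatids were compared with spermatocytes. The round spermatid markers summed to 2609 to 2630 CPM in knockout spermatids, below the 2751 to 2902 CPM of spermatocytes labelled wild type. They had 6997 to 7186 CPM in wild-type spermatids and 1093 to 1104 CPM in spermatocytes labelled knockout. The stages were thus not matched in these markers between the labels, and their part in the changes was not tested. Under the knockout label, 68 of 83 members tested were lower and 5 higher in spermatids, where 77% of all genes tested changed (39.3% lower and 37.7% higher). The median log2 change was -0.31 over the members and -0.04 over all genes. Under the wild-type label, 38 of 83 members were lower and 12 higher, where 77.5% of all genes changed (36.4% lower and 41.1% higher), with medians of -0.11 over the members and 0.05 over all genes. With spermatocytes of the other label, 32 members were lower and 14 higher in knockout spermatids (6105 and 5659 of 15805 genes), and 67 lower and 4 higher in wild-type spermatids (6668 and 6363 genes), so the order of the labels in these counts turned. The 12 rises under the wild-type label were 6 with no low-count filter, where the rises over all genes went from 6494 to 6110. They also fell without spermatid replicate 1 or spermatocyte replicate 1 and grew without spermatocyte replicate 2, fits that leave a lone library in a group. Over the fits that left out 1 library, the median was -0.16 to -0.05 over the members and -0.01 to 0.05 over all genes. The stage comparisons share no library. Of the members, 36 were lower in both and 3, Rpl10l, Rpl39l and Rps4l, were higher in both. Among the members tested, 6 fell by more than 1 log2 unit in both: Rpl10a, Rpl14, Rps27a, Rps3, Rpl7l1 and Rps19bp1. These joint counts cover the members only, so no share over all genes stands beside them.

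The largest falls were in core genes of both subunits. Rpl10a, which forms the L1 stalk where spent tRNA leaves, had 17.8 and 15.5 CPM in spermatids and 68.6 and 68.3 CPM in spermatocytes of the knockout label, a log2 change of -2.04 ± 0.08 (SE; adjusted p = 4.1e-20). Under the wild-type label it had 10.4 and 10.5 CPM in spermatids and 49.7 and 53.3 CPM in spermatocytes, a change of -2.30 ± 0.09 (adjusted p = 4.1e-20). No library of one stage reached the range of the other, which held for 77 of the 83 members under the knockout label and 52 under the wild-type label. The share over all genes is not given for these counts.

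Rpl14, a protein of the large subunit, had 19.4 and 19.7 CPM in spermatids and 82.1 and 75.6 CPM in spermatocytes of the knockout label, and 13.4 and 13.9 CPM in spermatids and 54.1 and 58.0 CPM in spermatocytes of the wild-type label. It changed by -2.01 ± 0.07 and -2.04 ± 0.08 under the knockout and the wild-type label. Rps27a, which is made as a fusion of ubiquitin with a protein of the small subunit, had 33.2 and 43.1 CPM in knockout spermatids and 178 and 197 CPM in spermatocytes labelled knockout, against 29.5 and 30.2 CPM in spermatids and 87.9 and 141 CPM in spermatocytes of the wild-type label. Its log2 change was -2.30 ± 0.13 under the knockout label and -1.94 ± 0.13 under the wild-type label. Rps3, at the mRNA entry of the small subunit, changed by -1.49 ± 0.07 and -1.27 ± 0.07, and Rpl7l1, a relative of Rpl7 that acts in assembly of the large subunit, by -1.14 ± 0.09 and -1.06 ± 0.09. Rps19bp1 changed by -2.01 ± 0.13 and -2.02 ± 0.14. The Sertoli markers were also lower in spermatids, with 33.5 to 33.7 CPM in spermatids and 168 to 170 CPM in spermatocytes under the knockout label, and 23.8 to 26.7 and 253 to 273 CPM under the wild-type label. All 8 Sertoli markers had counts in each of these libraries. Leydig and spermatogonial markers were also lower in spermatids under both labels. Markers of other cells went the other way. The macrophage markers summed to 26.3 to 28.0 CPM in spermatids and 5.12 to 5.20 CPM in spermatocytes under the knockout label. Under the wild-type label they had 11.6 to 11.8 and 3.80 to 4.34 CPM. The peritubular myoid markers were likewise higher in spermatids under both labels. The part of any of these markers in the falls was not tested.

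The rises were smaller, and 3 testis paralogs rose under both labels. Rps4l had 159 and 159 CPM in spermatids and 131 and 116 CPM in spermatocytes under the knockout label, a change of 0.37 ± 0.06 (adjusted p = 2.4e-06). Under the wild-type label it had 182 and 189.7 CPM in spermatids and 132 and 146 CPM in spermatocytes, a change of 0.41 ± 0.06 (adjusted p = 2.1e-07). Rpl39l rose by 0.15 ± 0.06 under the knockout label and 0.31 ± 0.06 under the wild-type label, and Rpl10l by 0.33 ± 0.05 and 0.16 ± 0.05. Without either wild-type spermatid library the rise of Rpl10l under the wild-type label missed the threshold, at 0.12 without replicate 1 (adjusted p = 0.061) and 0.10 without replicate 2 (adjusted p = 0.12). Under the knockout label the rise of Rpl39l was likewise 0.09 (adjusted p = 0.26) without knockout spermatid replicate 1 and 0.11 (adjusted p = 0.21) without spermatocyte replicate 1. Set against spermatocytes of the other genotype label, Rpl10l changed by -0.05 in wild-type spermatids and its direction turned.

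Other members passed the test for a rise under the wild-type label. Rps29, a zinc-binding protein of the small subunit, had 89.3 and 94.3 CPM in spermatids and 107 and 94.9 CPM in spermatocytes of the knockout label, and 141 and 119 CPM in spermatids and 90.3 and 97.5 CPM in spermatocytes of the wild-type label. It rose by 0.47 ± 0.07 under the wild-type label (adjusted p = 4.2e-07), and had -0.13 ± 0.07 under the knockout label (adjusted p = 0.084). Rpl35 rose by 0.27 ± 0.06 and Rpl37rt by 0.28 ± 0.10 under the wild-type label, and for Rpl35 the difference between the labels did not pass (-0.16, adjusted p = 0.15). The Rpl37rt call was lost without wild-type spermatid replicate 1, at 0.11 (adjusted p = 0.45), and without wild-type-labelled spermatocyte replicate 1, at 0.17 (adjusted p = 0.16).

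In 6 members the calls had opposite signs, a count also given without its share over all genes. Rps4x and Rpl10 were higher in spermatids under the knockout label and lower under the wild-type label, and Rpl37, Rps20, Rps23 and Rps24 the reverse. Rps4x changed by 0.74 ± 0.19 under the knockout label (adjusted p = 7.2e-04) and by -0.60 ± 0.23 under the wild-type label (adjusted p = 0.019), where the call was lost without spermatid replicate 1 (-0.49, adjusted p = 0.12) or spermatocyte replicate 2 (-0.47, adjusted p = 0.12). Rpl10 changed by 0.25 ± 0.11 (adjusted p = 0.042) and -0.48 ± 0.13 (adjusted p = 0.0017). Its rise under the knockout label was 0.20 to 0.30 without 1 library each and passed in none of those 4 fits, with an adjusted p of up to 0.22. Rpl37, Rps20, Rps23 and Rps24 are core genes that changed by -0.15, -0.33, -0.41 and -0.16 under the knockout label and by 0.22, 0.18, 0.14 and 0.15 under the wild-type label.

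The stalk genes and other abundant members changed by about 0.5 or less. Rplp0 changed by -0.32 ± 0.05 under the knockout label and -0.11 ± 0.05 under the wild-type label, and Rplp1, one of its partners in recruiting elongation factors, by -0.51 ± 0.06 and -0.15 ± 0.06. Rplp2, the other partner, changed by -0.16 ± 0.06 under the knockout label (adjusted p = 0.024) and by 0.12 ± 0.06 under the wild-type label, where it did not pass (adjusted p = 0.097). Rpsa, a small-subunit protein also known as the laminin receptor, changed by -0.29 ± 0.06 and -0.21 ± 0.06, and Rpl3, which lies at the catalytic centre, by -0.19 ± 0.05 and -0.12 ± 0.05. With spermatocytes of the other label, Rpsa changed by 0.02 and Rpl3 by 0.12 in knockout spermatids, both turned in direction. Under the wild-type label, the calls of Rplp0 (-0.09, adjusted p = 0.15, without spermatid replicate 1), Rplp1 (-0.11, adjusted p = 0.16, without spermatid replicate 2) and Rpl3 (-0.11, adjusted p = 0.072, without spermatocyte replicate 2) rested on single libraries.

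**Figure D4:**
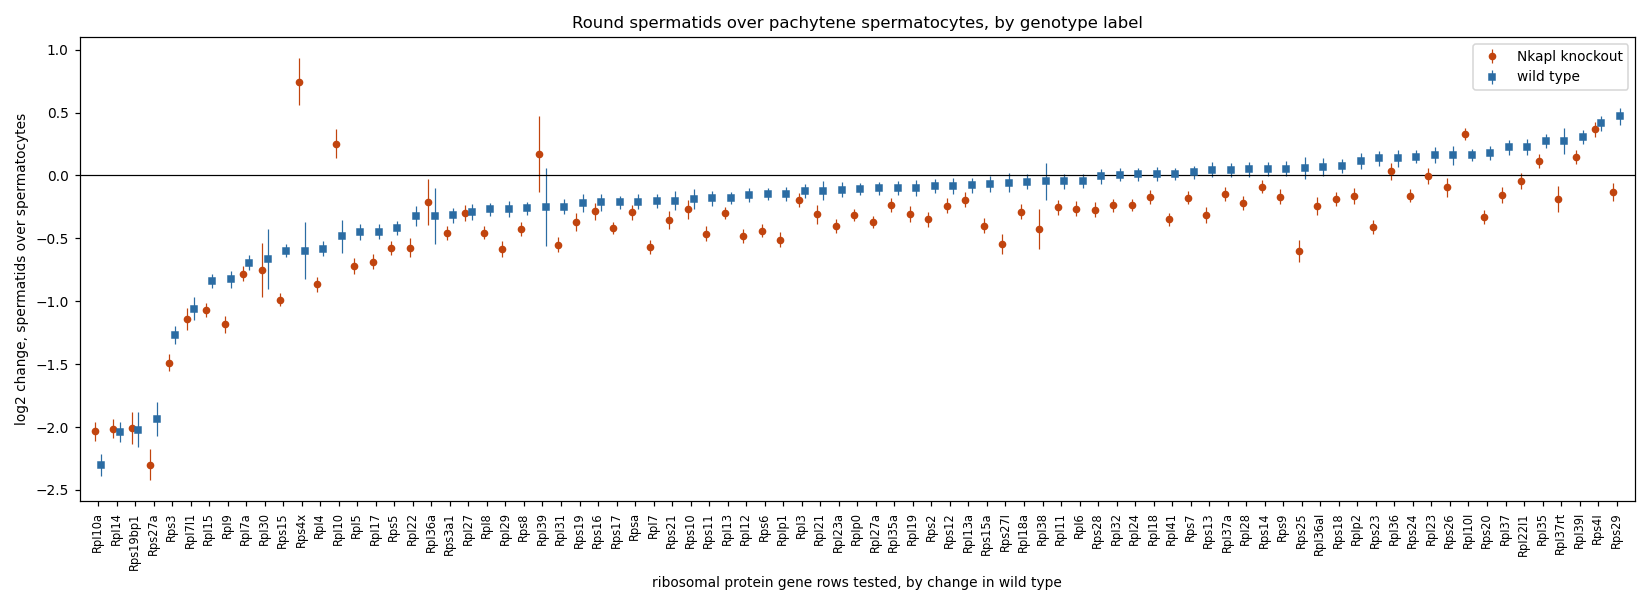
log2 change of round spermatids over pachytene spermatocytes (y axis) with its SE for the 83 members tested (x axis, ordered by the change under the wild-type label); circles are the knockout label, squares wild type. Rpl10a, Rpl14, Rps19bp1 and Rps27a lie near -2 in both, most knockout points lie below the wild-type ones, and Rps4x and Rpl10 lie above 0 under the knockout label and below 0 under the wild-type label.

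The change between stages differed between the genotype labels for 42 of 83 members, 2 with a positive and 40 with a negative difference, where 25.5% of all genes differed (9.02% positive and 16.4% negative). The median difference was -0.22 over the members and -0.03 over all genes. The round spermatid markers of the stages also differed between the labels, as given above, and their part was not tested. The split depends on the scaling: with relative log expression factors, 3 members were positive and 21 negative, and the calls over all genes were 1941 positive and 1902 negative, against 1426 and 2599 with TMM. The positive differences were those of 2 X-linked genes, Rps4x with 1.34 ± 0.29 (adjusted p = 0.0012) and Rpl10 with 0.74 ± 0.17 (adjusted p = 0.0023), and both passed under each alternative run. The most negative were Rps25 (-0.66 ± 0.12), which some viral mRNAs need for initiation, Rps29 (-0.60 ± 0.10), Rps23 (-0.55 ± 0.08), which bears on decoding accuracy, Rps20 (-0.51 ± 0.08) and Rps27l (-0.48 ± 0.11). With DESeq2, Rps25 had -0.61 (adjusted p = 0.10). Rps27l is a copy of Rps27 induced by p53. Leaving out 1 library left a lone library in its group. It lowered the count of members, except without wild-type-labelled spermatocyte replicate 2, and moved the count over all genes. The median difference over the members was -0.17 and -0.18 without wild-type spermatid replicates 1 and 2 in turn. Without knockout spermatid replicates 1 and 2 it was -0.18 and -0.17. Without knockout-labelled spermatocyte replicates 1 and 2 it was -0.22 and -0.23, and without the wild-type-labelled ones -0.17 and -0.29. Over all genes it was -0.04 to 0.03 in these fits.

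Within spermatids, the knockout was compared with wild type. The 3 largest rises among the members were those of X-linked genes, and the fourth X-linked gene, Rpl39, did not pass the test. Rps4x had 4.18 and 5.74 CPM in knockout spermatids, against 1.69 and 2.14 CPM in wild-type spermatids, from 73 and 100 counts against 29 and 37 counts. Its log2 fold change was 1.37 ± 0.21 (SE; adjusted p = 2.2e-06). Rpl10 had 11.1 and 11.5 CPM in knockout and 5.31 and 5.72 CPM in wild-type spermatids, a difference of 1.03 ± 0.13 (adjusted p = 5.6e-08). Rpl36a had 3.21 and 3.61 CPM in knockout and 1.87 and 1.97 CPM in wild-type spermatids, a difference of 0.83 ± 0.22 (adjusted p = 0.0016). For these 3 genes both knockout libraries lay above both wild-type libraries, as for 32 of the 83 members, a count without its share over all genes. The differences ran 1.11 to 1.55, 0.95 to 1.06 and 0.73 to 0.89 over the fits that left out 1 library each. Rpl39 differed by 0.33 with an interval of -0.30 to 0.96 (95%), and its groups overlapped.

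In both groups their levels lay below those of every testis library, which were scaled separately; Rpl36a came closest, at 3.21 and 3.61 CPM in knockout spermatids against 5.69 CPM in the lowest testis library. Beside these rises, markers of other cells were also higher in knockout spermatids: the 5 macrophage markers summed to 26.3 to 28.0 CPM in knockout and 11.6 to 11.8 CPM in wild type, the 6 Leydig markers to 22.0 to 23.8 and 8.04 to 8.52 CPM, the 8 spermatogonial markers to 52.1 to 52.2 and 37.8 to 38.9 CPM, and the 8 Sertoli markers to 33.5 to 33.7 and 23.8 to 26.7 CPM. All of these markers had counts, except that in wild-type spermatids 4 to 5 of the macrophage and 5 to 6 of the Leydig markers did. The round spermatid markers were lower in knockout, at 2609 to 2630 CPM against 6997 to 7186 CPM in wild type. The part of these in the X-linked rises was not tested.

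Of all 83 members tested in spermatids, 21 were higher and 14 lower in knockout, where 60% of all genes changed (29% higher and 31% lower), and the medians were 0.05 over the members and 0.03 over all genes. Both shares of the members lay below the background. The balance rests on single libraries. Leaving out 1 of them left a lone library in its group, and without wild-type replicate 2 more members were lower than higher. Calls over all genes leaned further to lower in each such fit. The medians over the members were then 0.02 and 0.03 without wild-type replicates 1 and 2, and 0.02 and 0.05 without knockout replicates 1 and 2. Those over all genes were 0.004, -0.001, -0.003 and 0.004. Among core genes, Rpl10a (0.67 ± 0.10, adjusted p = 2.1e-06) and Rpl14 (0.52 ± 0.09, adjusted p = 3.0e-05) were the highest, both among the largest falls between the stages. Rps29 had 89.3 and 94.3 CPM in knockout and 141 and 119 CPM in wild-type spermatids, a difference of -0.50 ± 0.07 (adjusted p = 3.8e-07). Rps20 (-0.43 ± 0.06, adjusted p = 2.4e-07) and Rps25 (-0.41 ± 0.09, adjusted p = 2.1e-04; 0.083 with DESeq2) were lower too, as was Rpl38, a large-subunit protein that mouse embryos need for translation of Hox mRNAs (-0.43 ± 0.16, adjusted p = 0.021). The Rpl38 difference missed the threshold without wild-type replicate 1 (-0.34, adjusted p = 0.20) and without knockout replicate 1 (-0.20, adjusted p = 0.34).

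The paralogs did not move as 1 group in knockout spermatids. Rpl10l had 400.0 and 395 CPM in knockout and 304 and 307 CPM in wild-type spermatids, a difference of 0.38 ± 0.05 (adjusted p = 4.4e-08). Rps4l had 159 and 159 CPM in knockout and 182 and 189.7 CPM in wild type, a difference of -0.22 ± 0.06 (adjusted p = 0.0016). Parent and copy were both higher for Rpl10, while Rps4x was higher and Rps4l lower. Rpl39l differed by -0.10 (95% interval -0.21 to 0.01) and Rpl36al by -0.04 (95% interval -0.18 to 0.10), and neither passed. Without wild-type replicate 2, Rpl39l passed at -0.22 (adjusted p = 0.0052), and without knockout replicate 1 at -0.17 (adjusted p = 0.049).

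In spermatocytes, the libraries labelled knockout had higher levels of most members than those labelled wild type. Of 83 members tested, 70 were higher and 1, Rps4l, was lower, where 59.2% of all genes changed (33.6% higher and 25.7% lower). The medians were 0.27 over the members and 0.07 over all genes, and 62 of the 71 core members tested were higher. Rps27a had 178 and 197 CPM in libraries labelled knockout and 87.9 and 141 CPM in those labelled wild type, a difference of 0.71 ± 0.11 (adjusted p = 2.4e-06). Rpl36a differed by 0.72 ± 0.19 (adjusted p = 0.0015; 0.067 with DESeq2), Rpl14 by 0.49 ± 0.06, Rpl31 by 0.43 ± 0.06, and Rpl5, which binds the 5S ribosomal RNA, by 0.48 ± 0.06. Rps4x (0.03, 95% interval -0.37 to 0.42) and Rpl39 (-0.09, 95% interval -0.66 to 0.48) did not pass. Rps4l had 131 and 116 CPM in libraries labelled knockout and 132 and 146 CPM in those labelled wild type (-0.17 ± 0.06, adjusted p = 0.012). Its call was lost without wild-type replicate 2 (-0.10, adjusted p = 0.15) and without knockout replicate 2 (-0.09, adjusted p = 0.33). The round spermatid markers summed to 1093 to 1104 CPM in libraries labelled knockout and 2751 to 2902 CPM in those labelled wild type, and the Sertoli markers to 168 to 170 and 253 to 273 CPM. Other sets were higher in libraries labelled knockout, at 66.3 to 71.3 against 48.8 to 50.1 CPM in those labelled wild type for Leydig markers, 76.2 to 80.7 against 70.7 to 72.9 CPM for spermatogonial markers, and 5.12 to 5.20 against 3.80 to 4.34 CPM for macrophage markers. Their part in the differences was not tested, and Nkapl itself goes against the labels here.

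**Figure D5:**
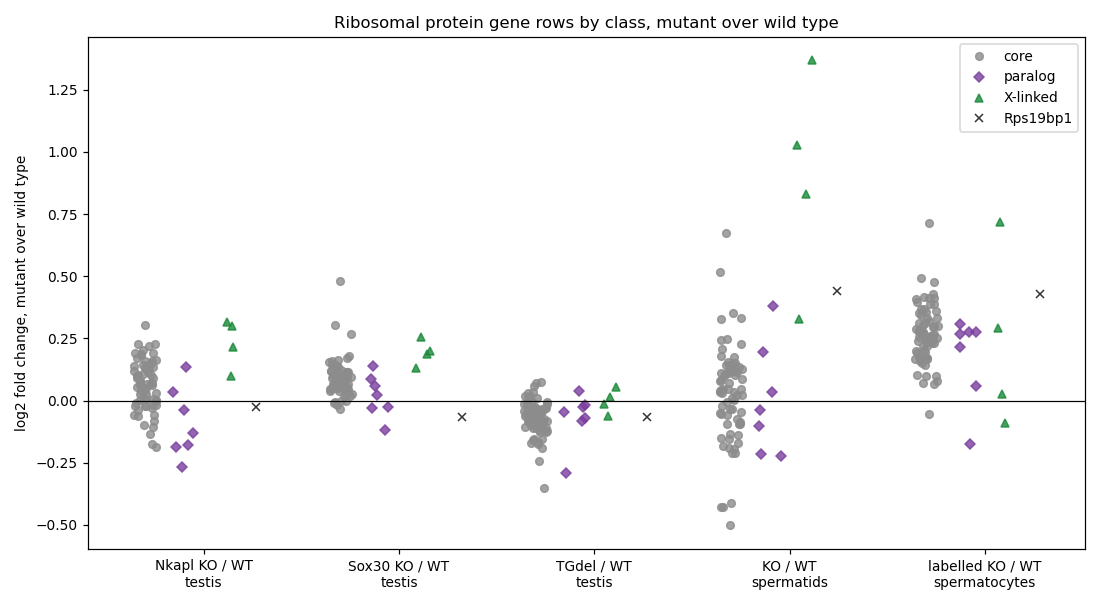
log2 fold change of mutant over wild type (y axis) for the member classes in 5 comparisons (x axis); each point is 1 gene row, shifted sideways at random within its class, and rows with fewer than 1000 counts over all libraries are left out. The X-linked genes stand highest in knockout spermatids, at up to 1.37, nearly all points are above 0 in spermatocytes labelled knockout, and the TGdel points center just below 0.

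In whole testis of the Nkapl set, differences were small. Of 84 members tested, 28 were higher and 5 lower in knockout, where 43.9% of all genes changed (17.8% higher and 26.1% lower), and the medians were 0.07 over the members and 0.01 over all genes. For 3 of the X-linked genes, parent and copy moved in opposite directions. Rps4x had 60.9 and 64.2 CPM in knockout testes, against 51.4, 48.6 and 50.7 CPM in wild-type testes, a log2 fold change of 0.32 ± 0.05 (adjusted p = 5.8e-05), and Rps4l had 88.6 and 84.6 against 101, 96.3 and 96.4 CPM (-0.18 ± 0.04, adjusted p = 0.0031). Rpl39 had 20.6 and 18.4 CPM in knockout and 15.4, 17.1 and 14.9 CPM in wild-type testes (0.30 ± 0.09, adjusted p = 0.011), and Rpl39l had 70.8 and 61.6 against 88.8, 75.3 and 74.3 CPM (-0.27 ± 0.07, adjusted p = 0.0052). Rpl10 had 65.8 and 59.7 CPM in knockout and 58.1, 52.5 and 51.3 CPM in wild-type testes (0.21 ± 0.06, adjusted p = 0.0073), and Rpl10l had 162 and 144 against 181, 169 and 170.1 CPM (-0.19 ± 0.05, adjusted p = 0.0047). The groups did not overlap for any of these 6 genes, nor for 41 of all 84 members tested, and the share over all genes is not given. Rpl36a (0.10, 95% interval -0.11 to 0.31) and Rpl36al (-0.13, 95% interval -0.25 to -0.00) did not pass.

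The other rises in Nkapl knockout testes were led by Rps27a (0.30 ± 0.07), Rps2 (0.23 ± 0.04), a protein of the mRNA entry of the small subunit, and Rpl7a (0.23 ± 0.04) of the large subunit. Rpl38 (-0.19 ± 0.07, adjusted p = 0.048) and Rps20 (-0.17 ± 0.05, adjusted p = 0.0077) completed the falls. These calls depend on the libraries. Without wild-type library 3, whose heading and record conflict, 14 members were higher and 5 lower, all 19 among the 33 called with it. Over all genes, 2117 were then higher and 3851 lower, against 3013 and 4420 with it. Rps4x kept a difference of 0.32 (adjusted p = 8.6e-04), while Rpl10 had 0.18 (adjusted p = 0.057) and Rpl39 0.26 (adjusted p = 0.064). Grouped by the file record, which puts that library with the knockouts, 0 of 84 members and 0 of all genes passed with edgeR's quasi-likelihood test. Of the members, 0 also had an unadjusted p under 0.05 there, and the medians were 0.04 over the members and 0.00 over all genes. Without knockout library 2, the median was 0.05 over the members and -0.0001 over all genes. Rpl10l (-0.10), Rpl39l (-0.17), Rps4l (-0.14) and Rps20 (-0.13) then had smaller falls that did not pass. Without knockout library 1, Rpl10 (0.15, adjusted p = 0.12) and Rpl39 (0.22, adjusted p = 0.14) did not pass. Without wild-type library 1, Rpl38 had -0.07 (adjusted p = 0.29). The Sertoli markers summed to 1868 to 1992 CPM in knockout and 1491 to 1546 CPM in wild-type testes, the spermatogonial markers to 302 to 316 and 232 to 242 CPM, and the round spermatid markers to 78.5 to 80.6 and 202 to 244 CPM, with 9 of the 12 detected in each knockout library. The pachytene markers summed to 5907 to 6019 CPM in knockout and 6493 to 6587 CPM in wild-type testes, and the 4 peritubular myoid markers to 285 to 287 and 224 to 265 CPM. Their part in the differences was not tested.

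In Sox30 knockout testes, 0 of 85 members passed edgeR's quasi-likelihood test, where 2.42% of all genes did (0.505% higher and 1.92% lower). At an unadjusted p under 0.05 there were 3, all higher, where 8.71% of all genes had such a p, and DESeq2 called 0. The count over all genes, 432, was 20 without knockout library 2, 43 without knockout library 1, 128 without wild-type library 1 and 693 without wild-type library 3. The medians were 0.07 over the members and 0.00 over all genes, and 72 of the 85 had a positive log2 fold change. Grouped by the file record, they were 0.02 over the members and 0.02 over all genes. Rps27a had 82.6 and 85.7 CPM in knockout and 53.4, 68.4 and 59.2 CPM in wild-type testes (0.48 ± 0.12, adjusted p = 0.13), and Rps4x had 87.0 and 81.5 against 73.9, 64.9 and 73.2 CPM (0.25 ± 0.10, adjusted p = 0.45). The third, Rps9, had 0.27 ± 0.09 (adjusted p = 0.34). For all 3 genes the groups did not overlap, as for 14 of the 85 members, each of them higher in knockout. The share over all genes is not given. By the file record, wild type 3 (59.2 and 73.2 CPM) would join the knockouts, and Rps27a and Rps4x would overlap with wild type. The common dispersion of edgeR, which measures the spread between replicates, was 0.0285 in the Sox30 set and 0.00138 in the Nkapl set, and whether these sets differ was not tested. The 7 epididymal markers summed to 48.3 to 76.6 CPM in Sox30 knockout and 5.32 to 6.93 CPM in wild-type testes, a difference whose part in these values was not tested. With only the libraries whose heading and record agree, the count was 0, with 1 member and 1555 of all genes at an unadjusted p under 0.05. The round spermatid markers summed to 79.9 to 120.2 CPM in Sox30 knockout and 174 to 360.0 CPM in wild-type testes, and their part was not tested either.

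In TGdel testes, 0 of 86 members passed with edgeR, where 1.25% of all genes did (0.2% higher and 1.05% lower), and 2 had an unadjusted p under 0.05, where 15.5% of all genes did. DESeq2 called 2, both lower, with 215 genes higher and 365 lower over all genes, against 32 and 168 with edgeR. They were Rplp2, with 148, 120.4 and 136 CPM in TGdel and 175 and 168 CPM in wild-type testes (-0.35 ± 0.09, edgeR adjusted p = 0.12), and Rps4l, with 109.7, 112 and 106 against 142 and 126 CPM (-0.29 ± 0.08, edgeR adjusted p = 0.12). For both, each TGdel library lay below each wild-type library, which held for 20 of the 86 members, with the share over all genes not given. By the file record, wild type 2 (168 and 126 CPM) and TGdel 3 (136 and 106 CPM) would change places, and both genes would overlap. Without TGdel library 1, in which Rn45s took 0.497% of counts against at most 0.0713% in the other libraries of the set, Rplp2 had -0.42 (adjusted p = 0.039). The round spermatid markers summed to 101.8 to 164 CPM in TGdel and 183 to 246 CPM in wild-type testes, and their part in these values was not tested. The median over the members was -0.06, against 0.00 over all genes, and 16 of 86 had a positive log2 fold change. Grouped by the file record, it was 0.02 over the members and 0.00 over all genes. With only the libraries whose heading and record agree (2 against 1), the count was 0, with 4 members and 1878 of all genes at an unadjusted p under 0.05, and the median was -0.04.

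Other genes of protein synthesis were counted beside the members. Of 76 ribosome biogenesis genes, 13 were higher and 46 lower in spermatids than in spermatocytes under the knockout label, and 17 higher and 44 lower under the wild-type label. Of 78 mitochondrial ribosomal protein genes, 8 were higher and 52 lower under the knockout label, and 15 higher and 46 lower under the wild-type label. These stand against 37.7% of all genes higher and 39.3% lower under the knockout label, and 41.1% and 36.4% under the wild-type label. Of 39 translation factor genes tested, 14 were higher and 15 lower under the knockout label, and 22 higher and 8 lower under the wild-type label; as shares, 35.9% and 38.5% under the knockout label were close to those of all genes. In spermatocytes labelled knockout, 50 of the 76 biogenesis genes were higher and 4 lower, in knockout spermatids 35 and 8, and in Nkapl knockout testes 21 and 7. The translation factor genes had 21 higher and 5 lower in spermatocytes labelled knockout, 5 and 14 in knockout spermatids, and 6 and 15 in Nkapl knockout testes. The mitochondrial ribosomal protein genes had 35 and 6, 17 and 19, and 7 and 15 in the same order. Over all genes, 33.6% were higher and 25.7% lower in those spermatocytes, 29% and 31% in knockout spermatids, and 17.8% and 26.1% in Nkapl knockout testes. Rack1, a scaffold on the small subunit that the symbol rule leaves out, changed between the stages by -1.69 ± 0.0679 under the knockout label and -1.62 ± 0.0714 under the wild-type label.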

How the data were processed

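The values used are read counts per gene as deposited by the authors, with no scaling found in them. The submitters' processing notes name HISAT2 2.1.0, HTSeq, DESeq2 and the mm10 build; libraries were stranded per the labels' protocols, but neither the annotation nor the strand option of the counting is stated. The 26 files held 23 distinct libraries, since 3 columns were repeated with 0 differing values, and libraries were grouped by column heading. Summary lines of HTSeq, 18.8% to 24.6% of the sum in isolated cells, stayed out of library sizes. Replicates of each group differed by more than sampling noise.

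Genes were filtered with filterByExpr and tested with edgeR 4.0.16 (R 4.3.3) after TMM scaling, each testis set alone and isolated cells in 1 fit. Each SE was obtained from the log2 fold change and its F value, and 95% intervals use the normal quantile. With so few libraries, these intervals are narrower than the F distribution of the test would give. The test was tried on simulated counts. DESeq2 1.42.0, other scalings, filters and groupings, and leaving out each library were alternatives. CPM per kilobase used the longest basic transcript of GENCODE M21 (GRCm38).

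The members and lists were chosen with earlier results of these data known. Named were the X-linked genes, paralogs, their parents, the stalk genes, Rpsa, Rps27a and Rps19bp1, plus the 5 largest called rises and falls per comparison with a mean log2 CPM of at least 1. Rps9, Rpl37 and Rps24 were named after their values were seen, to complete a count.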

Additional observations from a re-analysis of the deposited data

Results flagged for a closer look

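The change between the cell stages, spermatids minus spermatocytes on the log2 scale, differed between the knockout and the wild-type label by the interaction term of edgeR's quasi-likelihood fit (adjusted p under 0.05) for 42 members, of which the 13 named here are given as knockout minus wild type. The X-linked genes Rps4x and Rpl10 had positive differences of 1.34 and 0.74. The small-subunit genes Rps25, Rps29, Rps23 and Rps20 had -0.66, -0.60, -0.55 and -0.51. Among paralogs, Rps27l had -0.48, Rpl36al -0.31 and Rpl22l1 -0.28. Rpl7, a core gene of the large subunit, had -0.37. The stalk genes Rplp1, Rplp2 and Rplp0 had -0.36, -0.28 and -0.21.

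For Rps25, Rps29, Rps23 and Rps20 the values within each stage were as follows. They were lower in knockout than in wild-type spermatids (-0.41, -0.50, -0.21 and -0.43), and in spermatocytes labelled knockout against wild type they had 0.25, 0.10, 0.33 and 0.08, of which Rps25 and Rps23 passed the test. Nkapl goes against the spermatocyte labels, which enter every one of these differences.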

How the results depend on the processing

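Counts of members called are given here under other settings. Those not named stayed within 1.5 times the count reported. Fits that left out 1 library are set apart from this, and their medians are given instead of counts. For Nkapl knockout testes (33), the replicate number as a block gave 21, only libraries whose heading and record agree gave 19, grouping by file record 0 and all testis libraries in 1 fit 3, with 16 to 43 when 1 library was left out. For Sox30 knockout testes (0), the replicate block and all testis libraries in 1 fit gave 1 each. Their medians with 1 library left out were 0.05 to 0.11 over the members and -0.01 to 0.02 over all genes. For TGdel testes (0), DESeq2 gave 2, and the medians with 1 library left out were -0.08 to -0.04 and -0.01 to 0.01. For spermatocytes by label such medians were 0.22 to 0.32 over the members and 0.07 over all genes. For knockout against wild-type spermatids they were 0.02 to 0.05 and -0.003 to 0.004. For the stages under the wild-type label they were -0.16 to -0.05 and -0.01 to 0.05. Under the knockout label they were -0.34 to -0.30 and -0.04 to -0.03. For the stages under the knockout label (73), spermatocytes of the other label gave 46, with 11764 calls over all genes against 12170. For the difference of the stage changes (42), DESeq2 gave 18, relative log expression factors 24, no low-count filter 21, and leaving out 1 library 14 to 60. Calls over all genes moved as well. For Nkapl knockout testes (7433) they were 6136 with the block, 5968 with agreeing libraries, 0 by file record and 3351 in 1 fit. For Sox30 knockout testes (432) they were 1728 with the block and 896 in 1 fit. For TGdel testes (200) DESeq2 gave 580. The difference of the stage changes (4025) had 2194 with DESeq2, 3843 with relative log expression factors and 3062 with no filter. The causes were not tested.

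Of single genes, 8 values that passed the test under the setting reported or the other one turned in direction, all with spermatocytes of the other label. For the stages under the wild-type label they were Rpl10l (-0.051), Rpl36al (-0.21) and Rpl22l1 (-0.081). Under the knockout label they were Rpl36a (0.51), Rpl36al (0.031), Rpl22l1 (0.26), Rpl3 (0.12) and Rpsa (0.019). A further 116 values, over 47 results, turned without passing under either setting.

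Replicates of the same number did not deviate together in every set (correlations of 0.07 and 0.06 in the Nkapl set, 0.09 and 0.52 in the Sox30 set, -0.23 and -0.24 in the TGdel set), so the numbers were not taken to pair the libraries. Counts near 0 limit Rpl39 in isolated cells and Rpl26, Rpl34, Rps27 and Rps27rt everywhere, and their differences could not be judged from these counts. A fit with a lone library in a group assumes that it varies like the others.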

Other observations

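Rows with -ps in the symbol, which the rule leaves out, had at most 2008 counts each over the 23 libraries, with 1 exception. Rpl14-ps1 had 17761 counts, against 56288 for Rpl14. Without TMM factors it had 6.10 to 7.11 CPM in knockout and 4.18 to 4.90 CPM in wild-type spermatids, and 26.0 to 26.9 CPM in spermatocytes labelled knockout and 18.6 to 22.4 CPM in those labelled wild type. It was thus lower in spermatids than in spermatocytes, as Rpl14 was, and how reads were divided between the rows is not stated.

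Rpl31-ps12 had 7.71 to 9.41 CPM in the Nkapl set and 4.07 to 5.49 CPM in the Sox30 set, but 0.607 to 1.80 CPM in the TGdel set and 0.102 to 0.775 CPM in isolated cells. Rps15a-ps6 also separated the sets, with 2.02 to 3.15 CPM in the Nkapl set and at most 0.561 CPM in the TGdel set. The genotype groups within a set overlapped for Rpl31-ps12 in all 3 testis sets. Such differences between sets are not comparisons of genotypes. Among the members, Rps29 had 210.0 to 229 CPM in the TGdel set, against 32.5 to 44.1 CPM in the Nkapl set and 29.3 to 34.1 CPM in the Sox30 set, although all 3 sets are whole testes of the same age.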
